A study of Mus musculus with 4 samples.

Results

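Neuropeptide Y (Npy) and the genes of its receptors Y1, Y2, Y4 and Y5 (Npy1r, Npy2r, Npy4r and Npy5r) were followed across the 4 arrays of a C26 tumour study in mouse hypothalamus. The members were taken by symbol, from probe sets that name exactly 1 gene, and all 5 were found among 19938 genes on the array. Each had 1 probe set, so no choice between probe sets was involved. Npy, Npy1r and Npy2r lay past the filter of 6.59 log2 for the mean over arrays, together with 11963 genes in all, and Npy4r and Npy5r lay below it.

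The animals were male CDF1 mice (BALB/c x DBA/2), 10 to 11 weeks old by the labels, housed singly with food at will. C26 is a colon adenocarcinoma line of BALB/c origin that causes wasting in its host. Under anaesthesia the mice received 500000 (0.5M), 1000000 (1M) or 2000000 (2M) cultured C26 cells under the skin of the right flank, and the control mice a sham injection of the same 0.2 ml of buffered saline. All were killed on day 20. The control and the 0.5M array each held the pooled RNA of 4 mice and the 1M array that of 3, whereas the RNA at 2M is described as coming from 1 mouse under a title that reads pooled. No group had a second array, so a difference between groups has no replicate check, and the cell number goes together with the number of mice that the labels give for the RNA.

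NPY is a peptide transmitter made in large amounts by arcuate neurons that also make agouti-related peptide (AgRP), and its release promotes feeding and lowers energy use. Fasting and low leptin raise Npy transcripts in these neurons. Y1 and Y5 are postsynaptic receptors that carry much of the feeding response, Y2 is largely a presynaptic autoreceptor that restrains release, and Y4 binds pancreatic polypeptide best. All couple to inhibitory Gi/o proteins.

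Before the members are described, the arrays were set against marker genes of the hypothalamus and its neighbours. Of 10 hypothalamic markers 9 were measured, all 9 past the filter, and Agrp was not named on this array by the annotation used. Of these 9, 7 stood above control on every tumour-bearing array and 1, Pomc, below, beside 33.4% and 27.3% of all genes past the filter, and 0 passed limma, the test described further on. The list's median difference, in order of cell number, was 0.31, 0.29 and 0.36 log2, with oxytocin (Oxt) at 0.79, 0.81 and 0.62 and melanin-concentrating hormone (Pmch) at 0.40, 0.31 and 0.36. Both measured blood markers were higher as well, the erythroid enzyme gene Alas2 by 0.94, 0.83 and 0.79 log2 and the platelet chemokine gene Ppbp by 1.03, 1.33 and 1.38. In 2 of 7 measured pituitary markers the 0.5M array stood apart. Growth hormone (Gh) was 4.68 log2 above control on it and prolactin (Prl) 3.85, against 0.78 and 0.55 at 1M and 0.72 and 0.56 at 2M. The mean level of the 7 measured pituitary markers was 6.04, 7.40, 6.40 and 6.27 log2 on the control, 0.5M, 1M and 2M arrays, but the median difference of the list, 0.32, 0.38 and 0.33 log2, was alike on the 3 tumour-bearing arrays. All 6 measured markers of midbrain and hindbrain, namely genes of serotonin (Tph2, Slc6a4), dopamine (Th, Slc6a3) and noradrenaline (Dbh) neurons and the hindbrain gene Hoxb3, lay below control on every tumour-bearing array, as did 27.3% of genes past the filter and 15.4% of those below it. Only Th and Slc6a3 were past the filter. The 6 had a mean of 7.57 log2 in the control and 7.23, 7.07 and 7.13 in the others. The part of dissection and of blood in the values that follow was not tested.

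**Figure D1:**
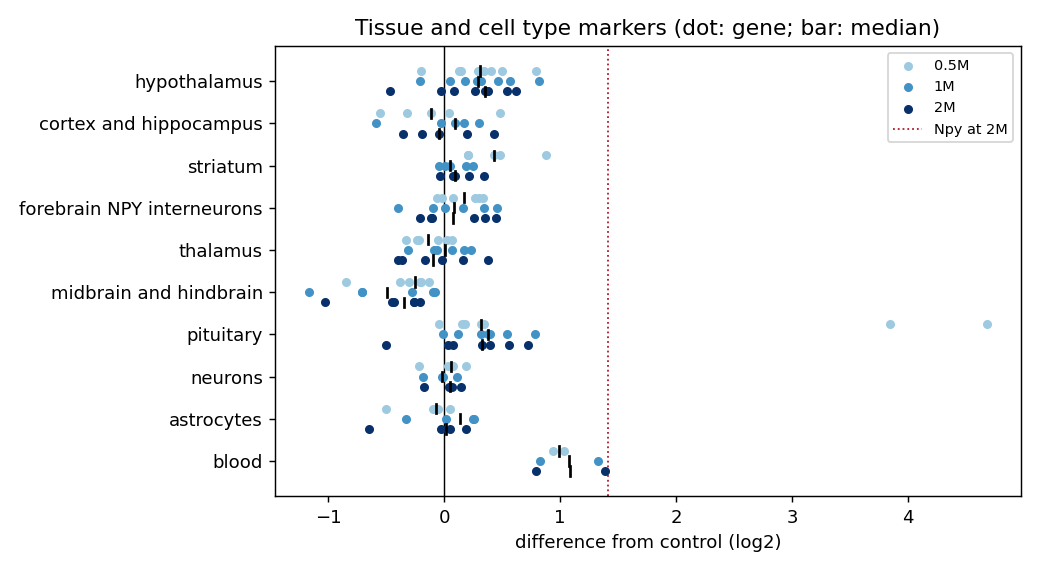
Difference from control (log2, x axis) of marker genes for tissues and cell types (y axis), with a dot for each gene, a black bar for the list median and a colour for each tumour-bearing array. The dotted line marks Npy at 2M (1.41 log2); Gh and Prl at 0.5M are the dots at 4.68 and 3.85 log2.

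Npy, the ligand, had the widest range of the 5 members. Its level was 10.32 log2 in the control array, 10.73 at 0.5M, 10.53 at 1M and 11.74 at 2M. The tumour-bearing arrays were thus all above the control, with 2M far above the others. The differences from control were 0.41, 0.20 and 1.41 log2, or 1.33-fold, 1.15-fold and 2.66-fold. At 0.5M, 95% of genes past the filter differed from control by up to 0.32 log2, and 2.01% lay at least as far as Npy. At 1M the share at least as far was 34.6%. In order of level the arrays ran control, 1M, 0.5M and 2M, with steps of 0.20, 0.21 and 1.00 log2. The first and second steps lay inside the spread between those arrays, where 95% of the genes past the filter differed by up to 0.46 and 0.37 log2. The step from 0.5M to 2M was matched or exceeded by 0.0502% of genes. The order did not follow the number of injected cells, because 1M stood below 0.5M.

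Npy was at least 0.5 log2 above control, the size used for counts here, at 2M only, where 1.24% of genes past the filter were that much higher. At 0.5M the corresponding share was 0.56% and at 1M 1.63%. At 2M Npy stood at rank 5 from the highest difference among 11963 genes. The 4 genes above it, looked up after the values were seen, were Lcn2, Scgb3a1, Lrg1 and Plin4, and each of these was at least 1 log2 higher at 0.5M and 1M as well. Npy was not. Among the 3 tumour-bearing arrays it was 2.01-fold higher at 2M than at 0.5M and 2.31-fold higher than at 1M. The 2M array was at least 1 log2 higher than 0.5M in 2 genes, 0.0167% of those past the filter. They were Ccn2, which encodes a secreted matrix-associated growth factor, and Npy. Against 1M there were 3 such genes (0.0251%), Ccn2, Npy and the macrophage-expressed gene Ms4a6c. In either direction, 6 genes past the filter were at least 1 log2 apart between 2M and 0.5M, and 6 between 2M and 1M.

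The deposited values allow a test over the 3 tumour-bearing arrays and another over the number of injected cells, both by limma, a linear model with a spread shared across genes. In the first, Npy was 0.68 ± 0.65 log2 above control (SD over 3 tumour-bearing arrays), with a 95% interval of -0.35 to 1.70 and an adjusted p of 0.58. It did not pass, while 6 genes rose (0.0502%) and 0 fell (0.0%). At an unadjusted p under 0.05 there were 1292 genes, 10.8% of those tested. Across injected cells the slope of Npy was 0.67 ± 0.13 log2 per 1000000 cells (SE, interval 0.38 to 0.96), with a limma adjusted p of 0.38. A smaller p was found for 24 genes, 0 genes passed in either direction (0.0%), and 780 (6.52%) had an unadjusted p under 0.05. The trend rests on the 2M array: without that array the slope was 0.20 log2 per 1000000 cells (limma adjusted p = 0.59), whereas without the 0.5M array it was 0.71 (0.0013) and without the 1M array 0.70 (0.00041), each time from 3 arrays with 1 residual degree of freedom. In tissue RNA, a change in the number of cells of a type and a change in RNA per cell cannot be told apart.

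**Figure D2:**
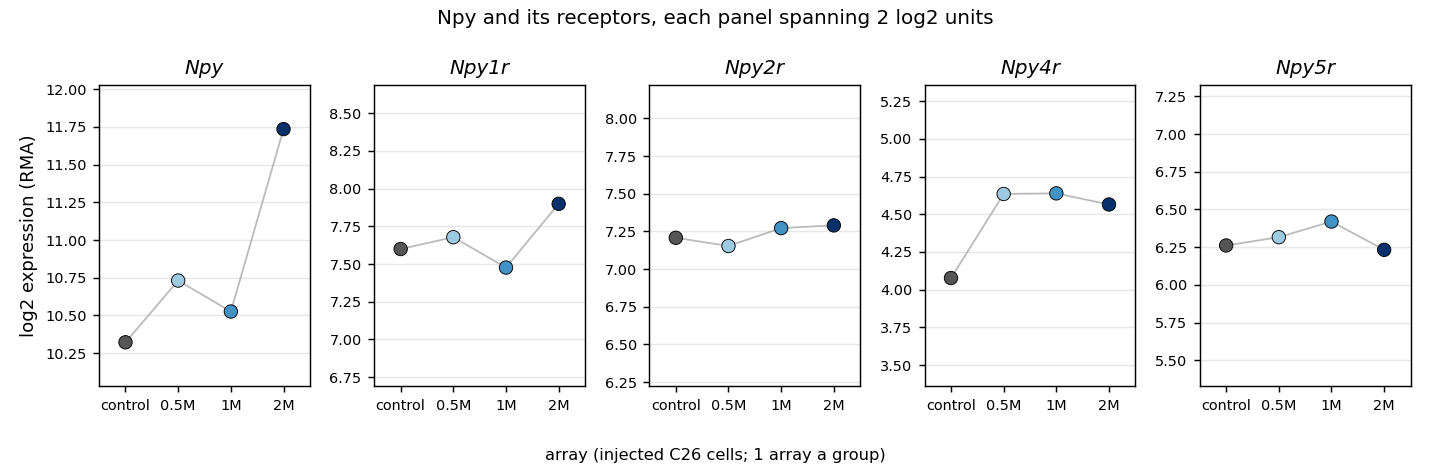
Level (log2 RMA expression, y axis) of Npy, Npy1r, Npy2r, Npy4r and Npy5r on the control, 0.5M, 1M and 2M arrays (x axis), a point for each array; every panel spans 2 log2 units and levels are not comparable between genes. Npy reaches 11.74 log2 at 2M, Npy4r is lowest in the control at 4.08 log2, and the other receptors vary by 0.42 log2 or less.

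The RefSeq promoter table for the mouse assembly GRCm38.p6 held all 5 members. The 250 bases before the start site are shown for Npy and Npy4r, the members that reached 0.5 log2 on an array, with GGGCGG, the GC box bound by Sp1-type factors, in capitals. The Npy window is chr6:49822460-49822709 on the plus strand and that of Npy4r chr14:34152420-34152669 on the minus strand, both written 5′ to 3′.
Npy: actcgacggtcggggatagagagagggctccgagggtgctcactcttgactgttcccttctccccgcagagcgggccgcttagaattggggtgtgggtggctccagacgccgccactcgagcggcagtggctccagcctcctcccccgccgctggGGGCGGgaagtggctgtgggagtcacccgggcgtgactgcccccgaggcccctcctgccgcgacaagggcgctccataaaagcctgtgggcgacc
Npy4r: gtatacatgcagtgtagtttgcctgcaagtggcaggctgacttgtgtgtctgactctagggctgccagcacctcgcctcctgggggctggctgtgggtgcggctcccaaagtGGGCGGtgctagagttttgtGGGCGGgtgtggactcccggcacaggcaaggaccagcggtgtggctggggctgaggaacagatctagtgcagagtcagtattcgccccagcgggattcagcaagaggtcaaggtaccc
Counting the base before the start site as -1, Npy held 1 GC box, starting at -95, and Npy4r held 2, starting at -138 and -118, whereas 32.7% of 32851 promoter windows of this length held at least 1. Other motifs were searched on both strands and their letters were not in either window. These were the CRE half-site TGACG, the core promoter element TATAAA, the E-box element CACGTG, the STAT element TTCNNNGAA, the glucocorticoid receptor half-site AGAACA and the forkhead element GTAAACA. They were held by 17.8%, 12.4%, 6.02%, 7.02%, 16.1% and 3.17% of all windows, in that order. Npy2r had 1 GC box, Npy5r 1 E-box and 1 AGAACA, and Npy1r had no match. The Npy window was 69.2% G and C, the highest of the 5, which ran down to 53.6% for Npy1r. No motif searched was thus shared by all members.

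Npy1r, encoding the postsynaptic Y1 receptor, stayed near control. The control value was 7.60 log2, with 7.68 at 0.5M, 7.48 at 1M and 7.90 at 2M. The highest array was 2M and the lowest 1M, with the control between them. The differences were 0.08, -0.12 and 0.30 log2, and at 2M 12.0% of the genes past the filter lay at least as far from control. The 2M array was 0.42 log2 above the 1M array, and 95% of genes past the filter differed by no more than 0.33 log2 between those arrays. In limma the mean difference was 0.09 ± 0.21 log2 (SD, 3 arrays) with an interval of -0.30 to 0.47 (adjusted p = 0.87), and the slope 0.13 ± 0.08 log2 per 1000000 cells (SE, adjusted p = 0.81). Its sign turned without the 2M array, at -0.022 log2 for the mean difference and -0.12 log2 per 1000000 cells for the slope.

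Npy5r, the Y5 receptor gene, is the neighbour of Npy1r on mouse chromosome 8, with 0 annotated genes between them in RefSeq. The control value was 6.26 log2, and 0.5M gave 6.32, 1M 6.42 and 2M 6.23. Its highest array was 1M, where Npy1r had its lowest value, and its lowest was 2M, where Npy1r had its highest. With cyclic loess, another normalization between arrays, its highest was 0.5M, at 0.077 log2 from control against 0.017 at 1M. All differences were small, at 0.06, 0.16 and -0.03 log2, and 54.7% of the genes below the filter lay at least as far from control at 1M. Its 3 steps between arrays in order of level were all inside the spread of 95% of those genes. It entered limma only without the filter, with a mean difference of 0.06 log2 and an interval of -0.23 to 0.35 (adjusted p = 0.92).

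Npy2r, encoding the presynaptic Y2 receptor, varied least. Its values were 7.21 log2 for the control, 7.15 for 0.5M, 7.27 for 1M and 7.29 for 2M, a range of 0.14 log2. Control and tumour-bearing arrays were interleaved, with 0.5M below the control and the others above it. The differences were -0.05, 0.06 and 0.08 log2, and 61.8% of genes past the filter lay at least as far from control at 2M. The limma mean difference was 0.03 ± 0.07 log2 (SD, 3 arrays), with an interval of -0.21 to 0.27 and an adjusted p of 0.93, and the slope was 0.06 ± 0.06 log2 per 1000000 cells (SE, adjusted p = 0.91).

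Npy4r, the receptor preferred by pancreatic polypeptide, was above control by similar amounts on all tumour-bearing arrays. The control array read 4.08 log2 and the 0.5M, 1M and 2M arrays 4.63, 4.64 and 4.57. The 3 tumour-bearing arrays lay within 0.07 log2 of each other and all above the control. The differences were 0.56, 0.56 and 0.49 log2, or 1.47-fold, 1.48-fold and 1.40-fold. The mean of this probe set over the 4 arrays was higher than that of 12.0% of the 19938 genes. The values used here carry no detection call, so its signal is not shown to be above background. Among the 7975 genes below the filter, 0.89% were at least 0.5 log2 higher at 0.5M, 5.58% at 1M and 2.58% at 2M. Both 0.5M and 1M exceeded that size in 0.414% of these genes. The mean difference was 0.54 ± 0.04 log2 (SD, 3 arrays). Without the filter, the only fit that included it, its limma interval was 0.28 to 0.80 log2 with an adjusted p of 0.63 over 19938 genes, and 56 genes had a smaller p. It did not pass, and the SD holds no uncertainty of the control array, which all 3 differences share. With cyclic loess in place of the deposited normalization the differences were 0.59, 0.43 and 0.43 log2, so that only 0.5M kept the size of 0.5.

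**Figure D3:**
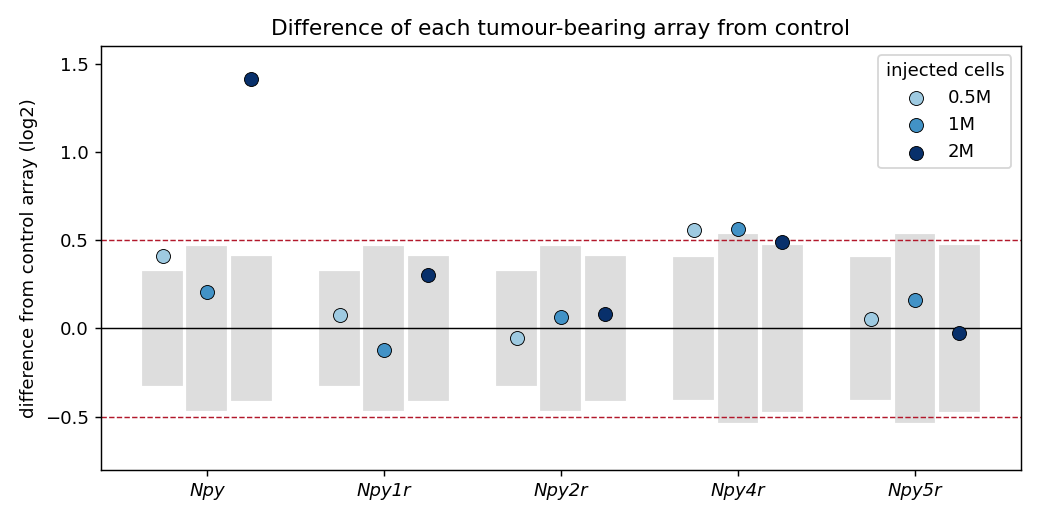
Difference of each tumour-bearing array from the control (log2, y axis) for the 5 genes (x axis), with a point for each array and a dashed line at 0.5 log2 either way. Grey boxes hold 95% of genes on the same array, those past the filter for Npy, Npy1r and Npy2r and those below it for Npy4r and Npy5r; Npy at 2M (1.41 log2) and at 0.5M (0.41) and the 3 points of Npy4r lie outside their boxes.

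Over the family, 2 of 5 members, Npy and Npy4r, were at least 0.5 log2 higher on 1 or more arrays, against 2.37% of genes past the filter and 7.35% of those below it, and 0 were that much lower, against 2.95% and 2.58%. The same 2 were above control on all 3 arrays, as were 33.4% of genes past the filter and 33.0% below it. The 3 differences share the control array. Of the 3 members tested by limma, 0 passed in either test. The 2 genes had unlike patterns, with Npy apart at 2M and Npy4r within 0.07 log2 on all tumour-bearing arrays in the deposited values, though not with cyclic loess, and with a signal not shown to be above background.

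**Figure D4:**
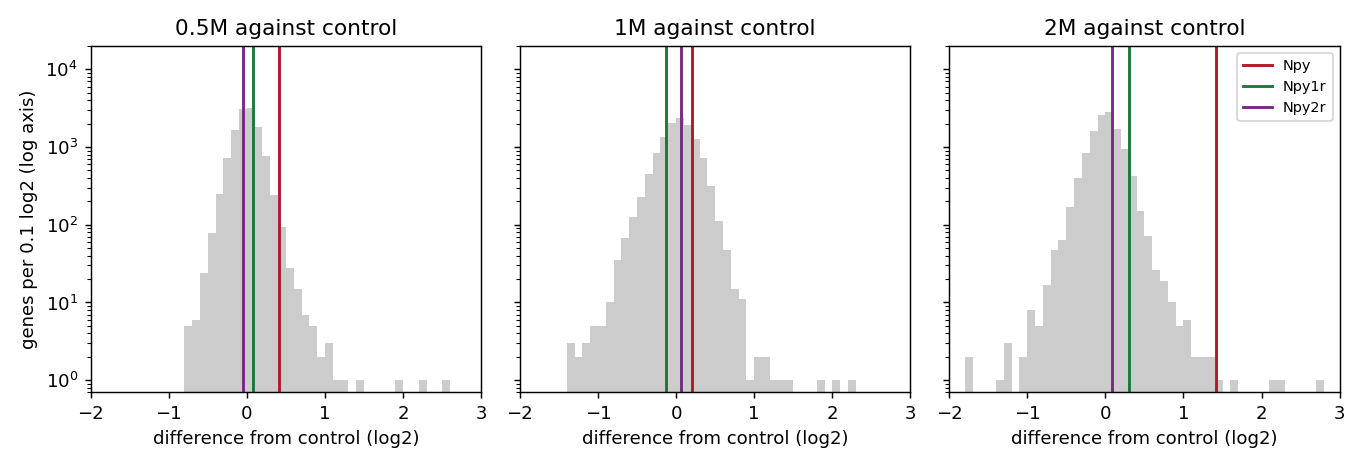
Number of genes past the filter (log axis) by difference from control (log2, x axis, 0.1 log2 a bar) for 0.5M, 1M and 2M, with vertical lines for Npy, Npy1r and Npy2r. At 2M the Npy line (1.41 log2) stands in the upper tail, behind 4 genes, and at 1M (0.20 log2) inside the bulk.

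The genes whose 3 differences came closest to those of Npy, by Euclidean distance among genes past the filter, were Hspb1, a small heat shock protein gene, at 0.45 log2, Fbln5, an elastic fibre protein gene, at 0.47, Cyp4f15, a cytochrome P450 gene, at 0.51, Apod, the apolipoprotein D gene, at 0.52, and Sult1a1, a phenol sulfotransferase gene, at 0.54. None matched Npy closely: at 2M they were 0.88 to 1.17 log2 above control. For Npy4r the nearest were Mir99a (0.05 log2), Rpp21 (0.06), Bloc1s1 (0.08), Avp (0.08) and Nol3 (0.09). Avp, the vasopressin gene, was 0.50, 0.56 and 0.55 log2 higher.

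The other ligands of these receptors did not follow Npy. Pyy, the gut hormone peptide YY gene, read 6.67 log2 on the control array and 6.59, 6.67 and 6.68 on the others in order of cell number. Ppy, the pancreatic polypeptide gene, read 6.97 log2 on the control array and 6.58, 6.97 and 7.02. Ppy was therefore 0.39 log2 lower at 0.5M and level with the control elsewhere. Pyy on all arrays, and Ppy at 0.5M, read close to the filter of 6.59 log2. With no detection call, the signals of Pyy and Ppy are not shown to be above background. Of the 3 ligand genes 0 passed limma in either test.

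Genes listed for the AgRP and NPY neurons of the arcuate nucleus were read beside Npy. The list was not shown to be specific to these neurons in this tissue. Otp is also among the hypothalamic markers, and Lepr is also in the POMC neuron list. Of 11 listed, 10 were measured, and Agrp itself was not. The 9 besides Npy lay within 0.5 log2 of control on all arrays, as did most genes. Of those past the filter, 2.37% were at least that much higher on 1 or more arrays and 2.95% that much lower. Otp, a homeobox gene needed to form these neurons, was 0.29, 0.46 and 0.37 log2 higher. Ghsr, the ghrelin receptor gene, was 0.05, 0.28 and 0.30 log2 higher, and Corin 0.12, 0.39 and 0.20. Acvr1c, an activin receptor gene, differed by -0.03, -0.13 and -0.20 and Bsx, a homeobox activator of Npy and Agrp, by 0.01, 0.23 and -0.04. Lepr, the leptin receptor gene, differed by 0.08, -0.10 and 0.09. The GABA genes of the list, Slc32a1, Gad1 and Gad2, stood at -0.06, -0.06 and 0.10 log2 at 2M. Of the 10 measured genes only Npy was at least 0.5 log2 from control on that array, and Agrp cannot be compared with it. On every tumour-bearing array 5 of the 10, Npy among them, stood above control and 1 below, beside 33.4% and 27.3% of genes past the filter. Corin, among the 5, and Acvr1c, the 1 below control, lay below the filter, where the shares were 33.0% and 15.4%. The list medians were 0.09, 0.22 and 0.10 log2, beside 0.01, 0.04 and 0.01 over all genes past the filter. Of 8 tested 0 passed limma over all genes in either test.

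Pomc, the precursor of the satiety peptide alpha-MSH made by the opposing arcuate neurons, read 7.19 log2 on the control array, 6.99 at 0.5M, 6.98 at 1M and 6.73 at 2M. It was lowest on the array where Npy was highest. Cartpt, made by the same neurons in rodents, differed by -0.05, 0.13 and -0.32 log2, Tbx3 by -0.15, 0.01 and -0.14 and Nhlh2 by -0.01, 0.01 and -0.17. The melanocortin receptor genes Mc3r (0.13, 0.16 and 0.10) and Mc4r (0.17, 0.06 and 0.25) were slightly above control on all 3. Of the 7 measured genes 2 stood above and 1 below control throughout, beside 33.4% and 27.3% of all genes past the filter. The medians were -0.01, 0.01 and -0.14 log2, beside 0.01, 0.04 and 0.01 over all genes past the filter, and 0 passed either limma test.

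**Figure D5:**
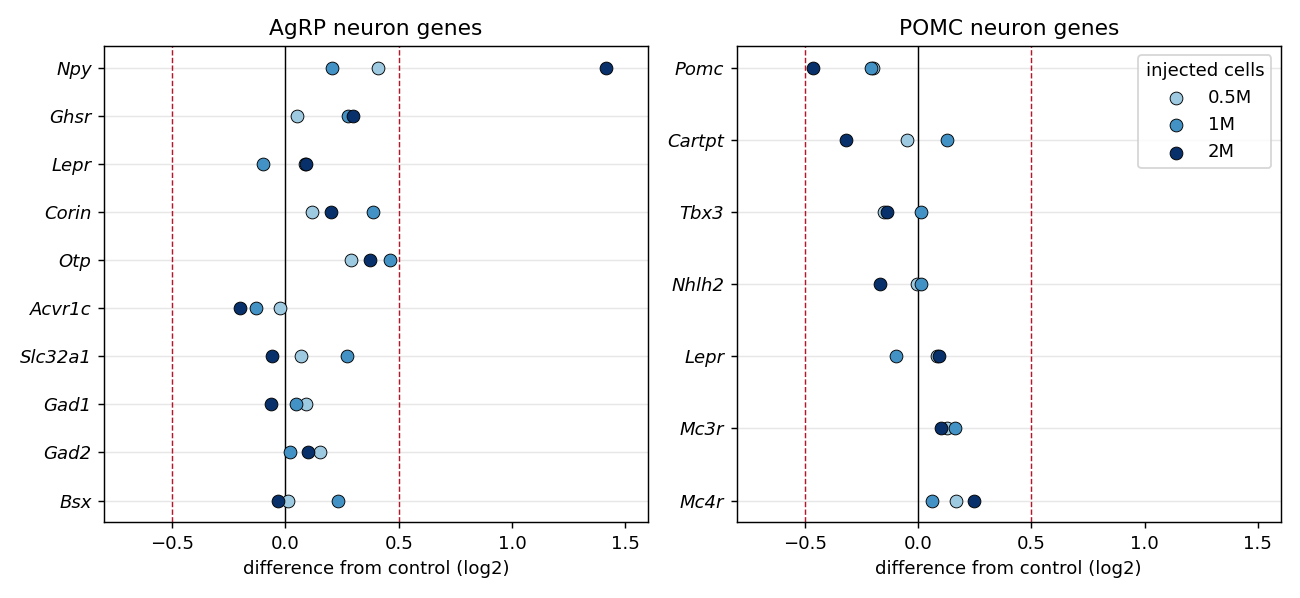
Difference from control (log2, x axis) of the measured AgRP neuron genes and POMC neuron genes (y axis), with a point for each tumour-bearing array and dashed lines at 0.5 log2 either way. Npy at 2M (1.41 log2) is the only point beyond a dashed line, and Pomc at 2M (-0.46 log2) the lowest.

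Components that couple Y receptors to the cell were centred on the control, with medians of -0.0035, 0.011 and -0.0068 log2 over 21 of 23 measured genes. On every tumour-bearing array 7 of the 21 stood above control and 7 below, shares near the 33.4% and 27.3% of all genes past the filter. Gnai3, an inhibitory G protein alpha subunit gene, differed most, by -0.36, -0.46 and -0.62 log2, and Adcy8, an adenylyl cyclase gene, by -0.31, -0.40 and -0.48. Adcy3 was 0.23, 0.27 and 0.10 log2 higher and Gnaz, another Gi-class subunit gene, 0.16, 0.18 and 0.27. The limma adjusted p in the tumour comparison was 0.38 for both Gnai3 and Adcy8, and 0 of 21 passed in either test.

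Peptide processing and breakdown genes, 12 of 13 measured, had medians of -0.02, -0.06 and -0.04 log2. Dpp4, whose protease trims NPY so that it no longer acts on Y1, was -0.50, -0.20 and -0.30 log2 from control, and the related Fap -0.22, -0.20 and -0.23, both below the filter. Pcsk1, a prohormone convertase gene, differed by -0.15, -0.30 and -0.20 and Chgb, a granule protein gene, by 0.28, 0.23 and 0.01. Among 12 regulators of Npy transcription, with medians of 0.03, 0.05 and 0.02 log2, Socs3, an inhibitor of leptin signalling, was 0.15, 0.55 and 0.40 log2 higher. Crtc1, a CREB coactivator gene, was 0.27, 0.49 and 0.30 higher, Klf4 0.40, 0.29 and 0.32 and Foxo1, which activates Npy when insulin and leptin signals are low, 0.16, 0.15 and 0.17. These 4 were the only regulators above control on every tumour-bearing array, and 2 of the 12 were below. Over all genes past the filter the shares were 33.4% and 27.3%. On the control array Socs3 read 6.54 and Klf4 6.58 log2, under the filter of 6.59. They passed it only through their higher tumour-bearing arrays, so their place in this count is not independent of its direction. Of the processing genes 0 of 8 tested and of the regulators 0 of 12 passed limma in either test.

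NPY is also made by interneurons of cortex and striatum, so their markers were read beside the Npy values. At 2M Sst, Lhx6, Chodl, Nos1, Npas1 and Tac1, listed as forebrain interneuron markers, stood at 0.35, 0.44, 0.26, -0.11, -0.11 and -0.21 log2 from control. Sst read 11.76 log2 on the control array, and the list was not shown to be specific to such interneurons in this tissue. The mean level of these 6 was 8.74 log2 on the control array and 8.88, 8.81 and 8.84 on those of 0.5M, 1M and 2M. On every tumour-bearing array 3 of them stood above control and 1 below, beside 33.4% and 27.3% of all genes past the filter. The striatal genes were highest at 0.5M, with Ppp1r1b 0.87 log2 and Rgs9 0.48 above control there and 0.34 and 0.21 at 2M. The 5 measured cortical and hippocampal markers moved both ways at 2M, with Tbr1 at 0.43, Emx1 at 0.19, Neurod6 at -0.05, Neurod2 at -0.19 and Slc17a7 at -0.35 log2 from control. Neurod6 alone of these was below the filter. None of these markers stood as far above control at 2M as Npy. Differences of markers do not measure the part of such tissue in the Npy values, which was not tested.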

How the data were processed

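Total RNA of whole hypothalamus (100 ng an array, RNA integrity number above 8, per the labels' protocols) was measured on 4 arrays. The table deposited by the authors holds log2 expression values from RMA (submitters' processing notes), a method with background subtraction, quantile alignment and probe summary that removes changes common to all transcripts. The RMA version, software and set of arrays: not given in the sources used here. Of 35556 probe sets, the platform annotation gave 21789 exactly 1 symbol and 1621 several, and left 12146 unnamed here. The probe set with the highest mean stood for each of 19938 genes, and the 40th percentile of that mean, 6.59 log2, was the filter.

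Differences from control were taken with no p-value. Two-sided limma tests (version 3.58.1, R 4.3.3, lmFit and eBayes) with Benjamini-Hochberg adjustment over the 11963 genes past the filter and a threshold of 0.05 gave the tumour comparison and the trend. Both had 2 residual degrees of freedom, and both take the spread of the single control array to equal that of the others. The p-values measure only the spread between these arrays, whose number limits the precision. The share of genes at least as far from control is a description, not a test.

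Members and gene lists were chosen with earlier results of these data known. The rule for named genes took the members, all measured genes of the ligand, AgRP neuron and POMC neuron lists, up to 4 genes of each other list by mean difference, and the 5 nearest genes of each member at least 0.5 log2 from control. Marker genes are named as tissue checks. Alternatives were cyclic loess, median centring, averaged probe sets, other filters, a threshold of 1 log2, ranked doses and leaving out each tumour-bearing array. The list medians were also taken over genes past the filter, an alternative chosen after seeing the data. Promoters came from RefSeq (GRCm38.p6). Other steps used Python 3.11.15 with numpy 2.4.6, matplotlib 3.10.9 and pandas 2.3.3. Protein sequences were not used here.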

Additional observations from a re-analysis of the deposited data

Results flagged for a closer look

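The genes named by rule, the marker genes and the genes at least 1 log2 higher at 2M than on another tumour-bearing array were searched for those past the filter that lay on opposite sides of control on 2 tumour-bearing arrays, apart by more than 95% of genes between the same arrays. With 1 array a group none of these differences was tested. Npy1r was 0.42 log2 higher at 2M than at 1M. Cartpt was -0.45 log2 and Slc32a1 -0.33 log2 at 2M relative to 1M. Ppy was 0.39 log2 higher at 1M and 0.44 log2 higher at 2M than at 0.5M, the array on which Gh and Prl stood highest. Ccn2 was 1.41 log2 higher at 2M than at 1M, and Ms4a6c was 1.02 log2 higher at 2M than at 1M and 0.56 higher than at 0.5M. Of the marker genes, the thalamic Lhx9 was 0.43 log2 and the cortical Emx1 0.31 log2 higher at 2M than at 0.5M. Tac1, from the forebrain interneuron list, was -0.48 log2 at 1M and -0.29 log2 at 2M relative to 0.5M.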

How the results depend on the processing

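The differences of the members from control were recomputed with cyclic loess, averaged probe sets and arrays centred on their medians. Of 45 values 40 moved by less than the spread over the 3 tumour-bearing arrays, and the largest move was 0.14 log2. The 40 include all values from averaged probe sets, which could not move because each member has 1 probe set. At 1M, cyclic loess put Npy2r at -0.026, Npy4r at 0.43 and Npy5r at 0.017 log2 and median centring put Npy4r at 0.49, and at 2M cyclic loess put Npy4r at 0.43; the cause was not tested. The mean difference of Npy4r was 0.48 with cyclic loess. With cyclic loess the limma mean difference of Npy2r turned to -0.0085 and the mean difference of Npy5r to -0.0036 log2, and without the 2M array that of Npy1r turned to -0.022 and its slope to -0.12.

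Leaving out a tumour-bearing array gave mean differences of 0.31 to 0.91 log2 for Npy, -0.022 to 0.19 for Npy1r, 0.0048 to 0.073 for Npy2r, 0.52 to 0.56 for Npy4r and 0.013 to 0.11 for Npy5r. The slope of Npy ranged from 0.20 to 0.71 and passed limma without the 0.5M (0.71) or the 1M array (0.70), and that of Npy1r from -0.12 to 0.15. Genes higher in the tumour comparison numbered 3 to 6 when an array was left out, 1 without a filter and 2 with the 60th percentile filter. In the trend 0 to 28 rose and 0 to 30 fell with an array left out. Npy1r and Npy2r were not tested with the 60th percentile filter, since they lay below it. At a threshold of 1 log2, Npy at 2M was the only member past it. No paired analysis was possible because each group is 1 array and the labels give no replicate numbers.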
